A study of Homo sapiens with 6 samples.

Results

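The interferon regulatory factors (IRFs) were followed in the human myeloma line MM.1S after knockdown of PRKCN, a protein kinase D listed under the symbol PRKD3. The members are the 10 genes named IRF1, IRF2, IRF3, IRF4, IRF5, IRF7, IRF8, IRF9, IRF2BP1 and IRF2BP2, taken by symbol from the 21850 genes of the count table, and none of the 10 symbols was absent. There were 6 libraries, 3 from cells infected with a scramble hairpin (shNT, the columns named MM.1S-PSG) and 3 from cells infected with a hairpin against PRKCN (shPRKCN, the columns named MM.1S-p3-1), all at day 3 and all labelled wild type in genotype. Both hairpins were delivered by lentivirus, so the controls carry an infection and a hairpin too. The study lists more than 1 hairpin against PRKCN, and the labels do not say which of them p3-1 is. The study's methods describe flow sorting of marker-positive cells after transduction in general, without stating it for these libraries. The labels also do not say whether the libraries of a group came from separate cultures, so the p-values measure the spread between these libraries, which may be technical.

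IRFs are transcription factors with a shared amino-terminal DNA-binding domain that reads GAAA repeats in the promoters of interferon genes and interferon-stimulated genes. IRF3, IRF5 and IRF7 act downstream of receptors for nucleic acids and switch on interferon genes, IRF9 carries STAT proteins to the promoters of interferon-stimulated genes, and IRF1 and IRF2 compete for overlapping sites, IRF1 as an activator and IRF2 mostly as its antagonist. IRF4 and IRF8 are the lymphoid and myeloid members, which bind weakly alone and act with partners such as PU.1 and the BATF-JUN pair. IRF4 drives plasma cell differentiation, and myeloma cells depend on it. IRF2BP1 and IRF2BP2 are not IRFs: they are corepressors first found through their binding to IRF2.

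Promoter windows of 300 bases (from 250 bases before to 50 bases after a transcription start, RefSeq, GRCh38.p14) were held for 7 of the 10 members, in 12 windows. IRF2, IRF3 and IRF7 had none. Those of IRF4, IRF1 and IRF9 are shown because these members differed most in RNA level, and a window of IRF5 because it holds the match that IRF4 and PU.1 could read together. Letters are lower case, and capitals mark the matches to the motifs given next.

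IRF4 (chr6:391502-391801, plus strand): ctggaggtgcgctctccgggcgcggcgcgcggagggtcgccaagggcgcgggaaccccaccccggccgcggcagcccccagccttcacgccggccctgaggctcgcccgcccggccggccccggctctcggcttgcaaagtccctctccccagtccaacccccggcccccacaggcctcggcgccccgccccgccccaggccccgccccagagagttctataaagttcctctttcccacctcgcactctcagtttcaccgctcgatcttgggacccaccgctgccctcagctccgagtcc
IRF1 (chr5:132490724-132491023, minus strand): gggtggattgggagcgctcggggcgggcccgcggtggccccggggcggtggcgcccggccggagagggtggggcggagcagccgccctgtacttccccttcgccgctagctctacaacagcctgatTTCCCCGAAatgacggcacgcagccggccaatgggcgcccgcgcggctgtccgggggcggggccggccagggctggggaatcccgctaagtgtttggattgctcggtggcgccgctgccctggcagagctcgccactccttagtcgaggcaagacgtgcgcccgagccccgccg
IRF9 (chr14:24161015-24161314, plus strand): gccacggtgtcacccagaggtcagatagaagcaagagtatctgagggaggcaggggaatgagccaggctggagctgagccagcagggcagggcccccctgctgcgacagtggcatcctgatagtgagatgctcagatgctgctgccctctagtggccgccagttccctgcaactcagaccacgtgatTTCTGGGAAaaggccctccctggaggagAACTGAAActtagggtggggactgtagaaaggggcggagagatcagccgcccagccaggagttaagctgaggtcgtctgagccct
IRF5 (chr7:128940420-128940719, plus strand): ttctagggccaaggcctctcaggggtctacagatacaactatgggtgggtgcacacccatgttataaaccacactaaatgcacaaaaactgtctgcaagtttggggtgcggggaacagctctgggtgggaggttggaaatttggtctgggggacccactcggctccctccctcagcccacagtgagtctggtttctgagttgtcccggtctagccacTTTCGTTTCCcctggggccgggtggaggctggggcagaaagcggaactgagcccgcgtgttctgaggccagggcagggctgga

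Both strands of every window were searched for the IRF core AANNGAAA, the interferon-stimulated response core GAAANNGAAA, the ETS-IRF composite element GGAANNGAAA and the STAT site TTCNNNGAA, where N is any base. Every match to the response core or to the composite element also matches the IRF core, which is their last 8 bases. Of 35116 promoter windows of the same length, 22.8% held the IRF core, 3.57% the response core, 2.82% the composite element and 7.66% the STAT site. The IRF4 window held none of these motifs, nor did the windows of IRF2BP2. The IRF1 window held a STAT site, TTCCCCGAA, beginning 124 bases before the start. The IRF9 window held a STAT site, TTCTGGGAA, 63 bases before the start and an IRF core, AACTGAAA, 35 bases before it. Of the 4 windows of IRF5 only the 1 shown held a match, TTTCGTTTCC, a composite element read on the opposite strand, 33 bases before its start. That window begins at 128940420, inside the gene, which begins at 128937032. The windows of IRF8 overlap each other and lie from 85902580 on, inside the gene, which begins at 85899162. In them IRF cores were found as AAAGGAAA and as TTTCAGTT, and the window of IRF2BP1 held a STAT site, TTCCCAGAA. These are matches of letters, and binding was not measured.

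Reads summed to between 35625564 and 37730003 per library. Every member had from 355 to 23118 counts in each library and all 10 passed the filter on low counts that left 13971 genes. The targeted gene was lower in every shPRKCN library: PRKD3 had 44913, 47712 and 45531 counts in shNT and 19979, 18253 and 19998 in shPRKCN, a log2 fold change of -1.29 (SE 0.034, adjusted p = 8.2e-43, edgeR). All plasma cell markers were present. Of 8 listed, JCHAIN was the most abundant and did not pass the test (log2 fold change 0.01, adjusted p = 0.712), SDC1 rose by 0.18 (adjusted p = 2.1e-06), and TNFRSF17 (-1.13), XBP1 (-1.28) and SLAMF7 (-0.97) fell beyond the fold limit used below. PRDM1 (-0.54, adjusted p = 3.4e-22) and MZB1 (-0.23, adjusted p = 7.4e-08) fell by less, and CD38 had a log2 fold change of -0.01 (adjusted p = 0.875). Summed over the 8 markers the level was 8578 to 8717 CPM (counts scaled to TMM-adjusted library sizes) in shNT and 7747 to 7874 in shPRKCN. Of the markers of other lineages, MS4A1 had at most 8 counts, PAX5 at most 2 and CD22, CD3D and CD3G at most 1 in any library. Others did not share this: the complement receptor gene CR2 (log2 fold change 1.23, adjusted p = 4.0e-30) and the T cell receptor subunit gene CD3E (1.40, adjusted p = 7.5e-26) were called higher, CD3E with 393, 379 and 419 counts in shNT and 1068, 1150 and 1021 in shPRKCN. Summed levels were 24.1 to 26.6 CPM in shNT and 56.9 to 61.2 in shPRKCN for mature B cell markers (4 of 5 listed, nearly all from CR2) and 10.7 to 12.0 against 27.5 to 31.3 CPM for T and NK cell markers (4 of 5 listed, nearly all from CD3E), while myeloid and stromal markers reached at most 0.699 and 0.211 CPM. The part of these marker differences in the results was not tested.

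A gene is called here at an adjusted p under 0.05 together with a log2 fold change beyond 0.58, the limits of the study, and is said to have risen or fallen at the adjusted p alone. Over all tested genes 2334 were called, or 16.7%, and DESeq2 called 2258. At these limits the study reports more genes in each direction, so its count was not reproduced here. Of the 10 members 1 was called, IRF4, which was lower. In that direction 10.6% of all genes were called. No member was called higher by edgeR, by DESeq2 or by limma on FPKM, where edgeR's background was 6.15%. At the adjusted p alone 7 members passed, 4 higher (IRF1, IRF3, IRF5 and IRF9) and 3 lower (IRF4, IRF8 and IRF2BP2), beside 54.2% of all genes. The groups did not overlap in CPM for 7 members, beside 58.8% of all genes. Outside IRF4 the largest log2 fold change of a member was 0.56, and the median over the 10 was 0.07 against 0.0012 over all genes tested.

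**Figure D1:**
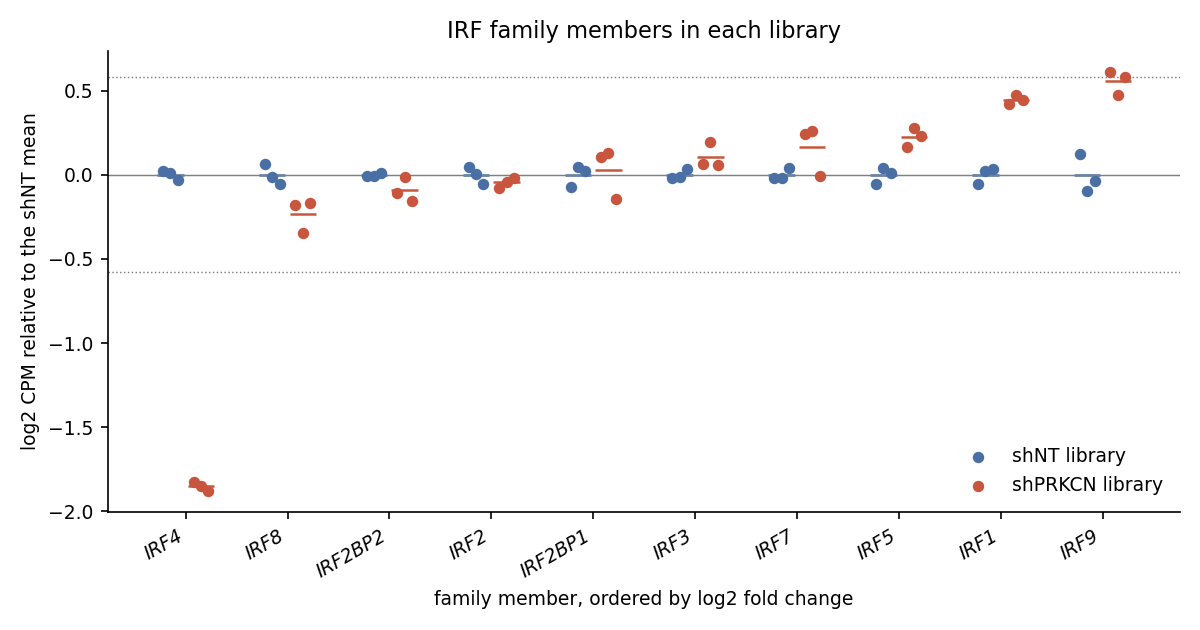
Each point is 1 library. The vertical axis is log2 CPM relative to the mean of the 3 shNT libraries of the same gene, short bars are group means, and dotted lines mark the fold limit of 0.58. IRF4 stands apart below the lower limit in all 3 shPRKCN libraries, and IRF1 and IRF9 are the highest members.

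IRF4, on chromosome 6 at 391752 to 411443, had 22388, 23118 and 22846 counts in shNT and 6585, 6438 and 6455 in shPRKCN. The 3 shNT libraries lay close together and far above every shPRKCN library. In CPM the level went from 624 ± 12.5 (SD, n = 3) to 173 ± 3.19 (SD, n = 3), or 27.7% of the shNT level. The log2 fold change was -1.85 (SE 0.035, adjusted p = 5.7e-52, edgeR), and only 0.766% of the tested genes had a lower one. In RNA from a whole culture, fewer cells that express IRF4 and less IRF4 RNA per cell cannot be told apart. No stretch of 50 bases in the GENCODE 29 transcripts of IRF4 occurs in a transcript of another gene, so its reads are not shared with a paralog.

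IRF1, which activates genes of antigen presentation and of the interferon-γ response, had 3274, 3596 and 3698 counts in shNT and 4825, 4980 and 4971 in shPRKCN. All shPRKCN libraries were above all shNT libraries. The level was 96.4 ± 3.25 CPM (SD, n = 3) in shNT and 131 ± 2.40 CPM in shPRKCN, and IRF1 rose 1.36-fold (log2 fold change 0.45, SE 0.040, adjusted p = 1.7e-15), which is short of the fold limit. IRF2, its antagonist, had 4753, 4821 and 4731 counts in shNT and 4621, 4711 and 4908 in shPRKCN. Its groups overlapped, and the log2 fold change was -0.05 (SE 0.039, adjusted p = 0.326). Of the 50-base stretches of IRF1, 22% occur in transcripts of other genes, 19.4% in C5orf56, the neighbour listed as IRF1-AS1. IRF1-AS1 itself had a log2 fold change of -0.01 (adjusted p = 0.937), with 951, 817 and 987 counts in shNT and 939, 974 and 903 in shPRKCN.

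IRF3, IRF5 and IRF7 are held inactive in the cytoplasm until they are phosphorylated, so their RNA level says nothing of their activity. For IRF3 and IRF7 the kinases are TBK1 and IKKε. IRF5 had 4100, 4545 and 4512 counts in shNT and 5056, 5445 and 5351 in shPRKCN, and its CPM did not overlap between the groups. It rose 1.17-fold (log2 fold change 0.23, SE 0.039, adjusted p = 8.3e-07). IRF3 had 2529, 2640 and 2786 counts in shNT and 2838, 3088 and 2866 in shPRKCN. Its CPM were 71.6 to 74.4 in shNT and 75.5 to 83.1 in shPRKCN, near each other but not overlapping, with a log2 fold change of 0.11 (SE 0.045, adjusted p = 0.042). DESeq2 gave IRF3 an adjusted p of 0.058, and without shPRKCN replicate 2, the library highest in IRF3, it was 0.272. IRF7, the member most strongly induced by interferon in many cells, was lower in abundance, with 529, 550 and 584 counts in shNT and 671, 676 and 573 in shPRKCN. The shPRKCN replicate 3 lay among the shNT libraries at 15.1 CPM, and the log2 fold change was 0.17 (SE 0.082, adjusted p = 0.075). Without that library it was 0.26 with an adjusted p of 0.011. IRF3 shares 15.1% of its 50-base stretches with other genes, 14.4% with BCL2L12, the gene that overlaps it head to head on chromosome 19, and BCL2L12 had a log2 fold change of 0.18 (adjusted p = 0.065).

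IRF8, the member closest to IRF4 in its partners, was among the least abundant, with 447, 440 and 437 counts in shNT and 399, 355 and 411 in shPRKCN. Its CPM were 11.7 to 12.7 in shNT and 9.55 to 10.8 in shPRKCN, without overlap. The log2 fold change was -0.22 (SE 0.097, adjusted p = 0.044), so IRF8 was not higher where IRF4 was low. This p passed in 6 of 16 alternative settings and reached 0.173 without shPRKCN replicate 2.

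IRF9, the DNA-binding subunit that joins STAT proteins, had 467, 417 and 443 counts in shNT and 692, 626 and 687 in shPRKCN. Every shPRKCN library was above every shNT library. It rose 1.47-fold, from 12.1 ± 0.977 to 17.8 ± 0.879 CPM (SD, n = 3), the largest increase of the members (log2 fold change 0.56, SE 0.085, adjusted p = 6.0e-08). This is just short of the fold limit of 0.58, and IRF9 passed that limit without shNT replicate 1 (0.62) or without shPRKCN replicate 2 (0.60). Of its 50-base stretches 43.8% occur in other genes' transcripts, 43.2% in AL136295.5, a transcript of the same locus, so reads from that shared portion cannot be told apart by sequence, while the rest of IRF9 is its own.

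The corepressors IRF2BP1 and IRF2BP2 differed little between the groups. IRF2BP2 had 7611, 7932 and 8215 counts in shNT and 7493, 8006 and 7395 in shPRKCN, with a log2 fold change of -0.09 (SE 0.037, adjusted p = 0.031) that passed in 5 of 16 alternative settings and gave an adjusted p of 0.307 without shPRKCN replicate 3. IRF2BP1 had 700, 789 and 790 counts in shNT and 837, 849 and 714 in shPRKCN, overlapping groups and a log2 fold change of 0.04 (SE 0.073, adjusted p = 0.696). Outside the 10 symbols, IRF2BPL, a paralog of the corepressors, rose by 0.14 on the log2 scale (adjusted p = 0.0015), and the gene that overlaps it, LOC107984638, had a log2 fold change of 0.48 (adjusted p = 0.1).

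Levels of different genes are compared per transcript length, as FPKM (fragments scaled to transcript length and library total). In shNT, IRF4 led the members at 117 ± 2.35 FPKM (SD, n = 3), followed by IRF2BP2 at 40.5, IRF3 at 37.4, IRF5 at 29.7, IRF1 at 26.8 and IRF2 at 14.7. IRF2BP1 at 8.15, IRF7 at 7.33, IRF9 at 6.77 and IRF8 at 4.40 were lower, and only IRF7 and IRF9 overlapped as neighbours in this order. In shPRKCN, IRF4 was at 32.8 ± 0.675 FPKM (SD, n = 3), below IRF3 at 40.8, IRF2BP2 at 38.5, IRF1 at 37.0 and IRF5 at 35.4. In that order IRF3 overlapped IRF2BP2, and IRF2BP2 overlapped IRF1, but IRF4 did not overlap IRF5 above it or IRF2 (14.5) below it. IRF9 stood at 10.1 FPKM, above IRF2BP1 at 8.47 and IRF7 at 8.35, which overlapped, and IRF8 was again last at 3.82. Among all 21850 genes IRF4 went from rank 395 by FPKM in shNT to rank 1634 in shPRKCN.

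**Figure D2:**
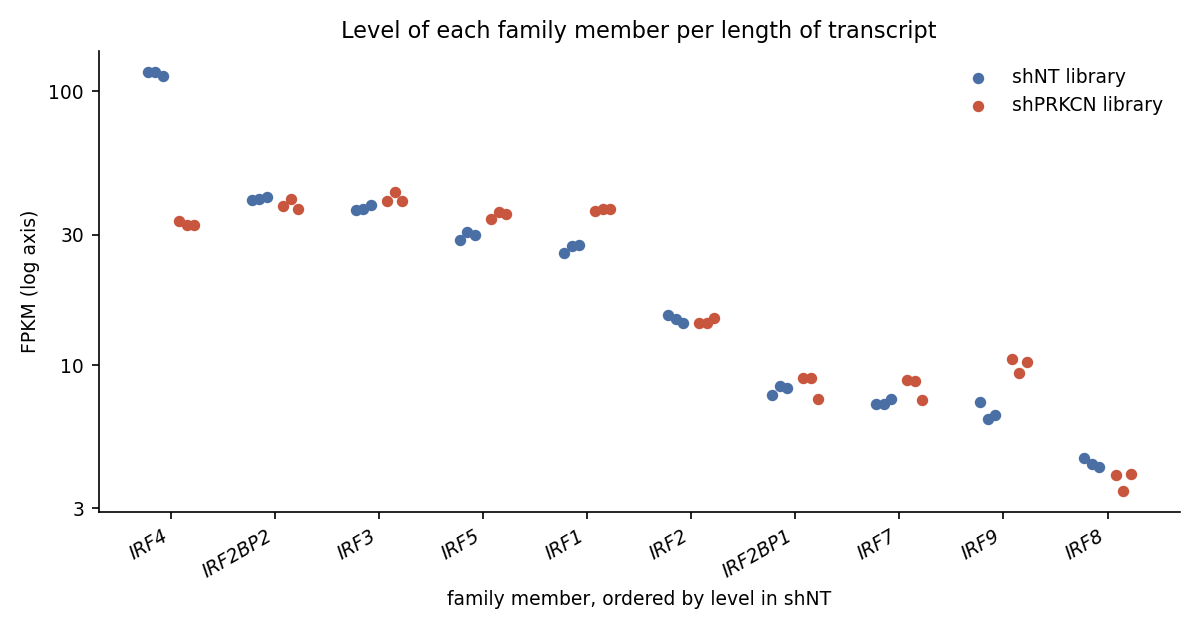
Each point is the FPKM of a member in 1 library, on a log axis, with members ordered by their shNT mean. IRF4 falls from 117 to 32.8 FPKM and comes to lie just below IRF3, IRF2BP2, IRF1 and IRF5.

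The paralogs were then set against IRF4 within each library. The ratio of each DNA-binding paralog to IRF4 was higher in all 3 shPRKCN libraries than in all 3 shNT libraries, for 7 of 7 paralogs among the members. All 7 ratios hold the fall of IRF4: on the log2 scale of CPM a gene at the same level in both groups would give a difference of 1.85. The FPKM of IRF3 was 0.312, 0.315 and 0.336 times that of IRF4 in shNT and 1.19, 1.32 and 1.23 times in shPRKCN. For IRF1 the same ratios were 0.218, 0.232 and 0.241 in shNT and 1.09, 1.15 and 1.15 in shPRKCN, and for IRF5 they were 0.243, 0.261 and 0.262 against 1.02, 1.12 and 1.10. By FPKM these 3 paralogs lay below IRF4 in every shNT library and above it in every shPRKCN library. The other 4 remained below it, IRF2 at 0.424 to 0.459 of IRF4 and IRF9 at 0.290 to 0.318 in shPRKCN. By CPM, which are not scaled to transcript length, IRF5, IRF1 and IRF3 also stayed below IRF4 in shPRKCN. Their mean log2 ratios to IRF4 there were -0.30, -0.40 and -1.15. On the log2 scale of CPM the difference of the ratio was largest for IRF9 at 2.41 and IRF1 at 2.30, then IRF5 at 2.08, IRF7 at 2.02, IRF3 at 1.96, IRF2 at 1.80 and IRF8 at 1.62, the last 2 below the 1.85 of a gene at equal levels. Each had an exact two-sided permutation p of 0.1, the smallest that 3 against 3 libraries can give, so no ratio could pass 0.05 by this test. Benjamini-Hochberg adjustment over the 7 together with the ratio of IRF1 to IRF2 left it at 0.1. The 7 ratios share the IRF4 value of each library as their denominator, so their common direction restates the fall of IRF4.

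**Figure D3:**
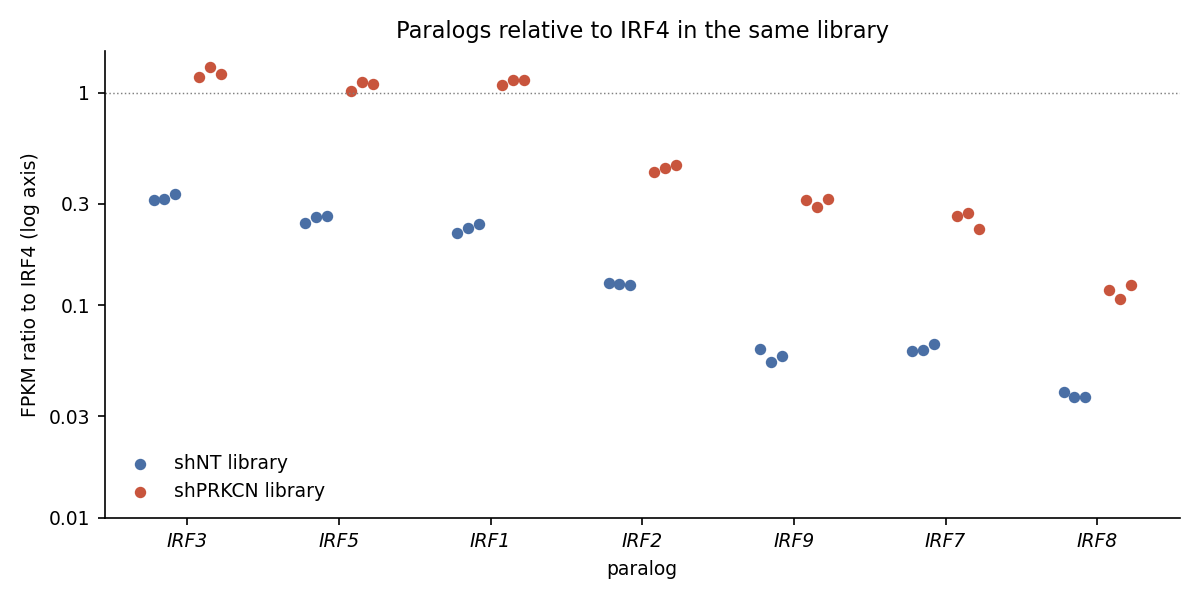
Each point is the FPKM of a paralog divided by that of IRF4 in the same library, on a log axis, and the dotted line marks equal levels. IRF3, IRF5 and IRF1 lie below the line in shNT (0.218 to 0.336) and above it in shPRKCN (1.02 to 1.32).

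Of the summed FPKM of the 8 DNA-binding members, IRF4 made up 48.5, 48.0 and 47.1% in shNT against 18.5, 17.5 and 17.9% in shPRKCN (47.8 ± 0.725% against 17.9 ± 0.476%, SD, n = 3, exact permutation p = 0.1). The sum itself went from 244 ± 1.64 to 183 ± 1.84 FPKM (SD, n = 3). Without IRF4 it went the other way, from 127 ± 1.38 to 150 ± 2.22 FPKM (SD, n = 3). IRF4 differed by -83.8 FPKM and the other 7 together by 22.7 FPKM, of which 10.2 came from IRF1, 5.63 from IRF5, 3.40 from IRF3 and 3.31 from IRF9. In shPRKCN the largest shares were 22.3% for IRF3, 20.3% for IRF1 and 19.4% for IRF5.

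**Figure D4:**
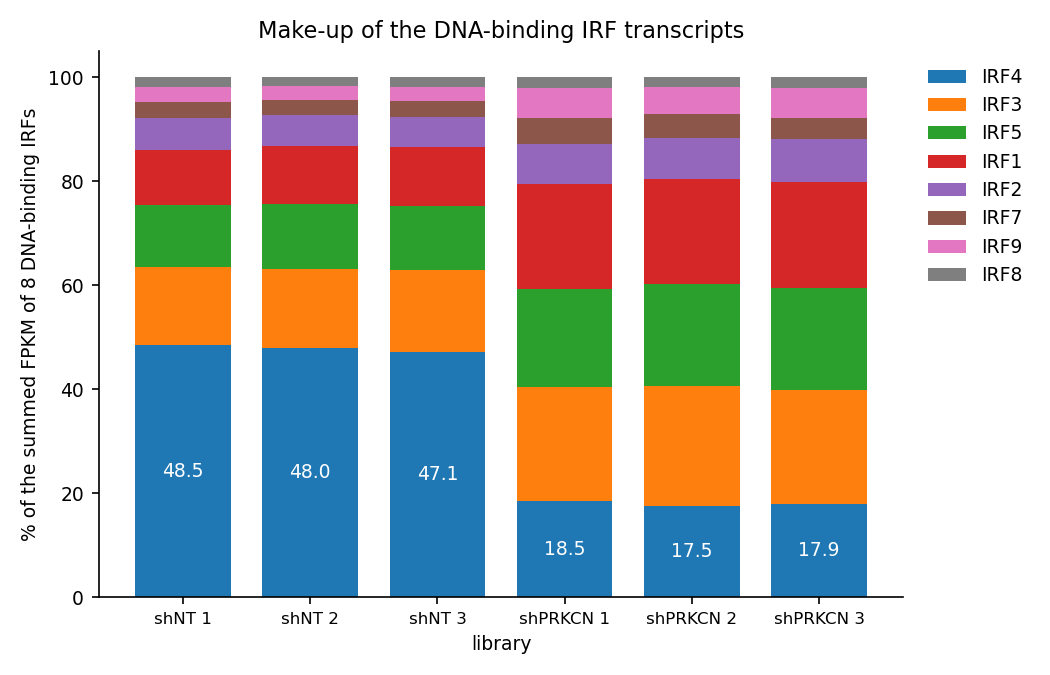
Each bar is 1 library, and its parts are the percent of the summed FPKM of the 8 DNA-binding members taken by each gene, with the IRF4 share printed in the bar. IRF4 takes 47.1 to 48.5% in shNT and 17.5 to 18.5% in shPRKCN.

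Genes that surround the IRFs in their pathways were read from 7 lists of 152 genes, of which 131 were listed and 121 tested. Among these 24 were called higher and 16 lower, 33.1% against the 16.7% of all genes tested, and the lists differed in direction. At the adjusted p alone 92 of the 121 passed, beside 54.2% of all genes. That 54.2% is the share to set beside the numbers of genes that rose or fell in each list. The interferon genes themselves were hardly seen. Of 21, 3 were listed, IFNE, IFNW1 and IFNG, with at most 2 counts in any library.

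Of the 18 interferon receptors, JAK kinases, STATs and their inhibitors, 5 rose, 6 fell and 7 did not pass, with a median log2 fold change of -0.03. The share called was 11.1%, below the 16.7% of all genes. Those called were JAK2, a kinase of the interferon-γ receptor (-0.81, adjusted p = 2.3e-11), and SOCS3, a feedback inhibitor of JAK kinases (-1.12, adjusted p = 3.3e-04), both lower. STAT2, a partner of IRF9, had 6404, 6886 and 7007 counts in shNT and 6560, 6683 and 6722 in shPRKCN, and did not pass (log2 fold change -0.06, adjusted p = 0.145). IFNGR2, a subunit of the interferon-γ receptor, rose by 0.49 (adjusted p = 6.0e-16) without reaching the fold limit.

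The 22 tested sensors, adaptors and kinases that activate IRF3, IRF5 and IRF7 were split. At the adjusted p alone 10 were higher and 9 lower, where 54.2% of all genes passed. Their median was 0.03 and 40.9% were called, against 16.7% of all genes. With limma on log2(FPKM + 1), 1 gene of this list was called, TASL. IKBKE, which encodes the kinase IKKε, was called higher (log2 fold change 0.60, adjusted p = 3.5e-16), while the related kinase TBK1 had -0.01 (adjusted p = 0.894). TASL, the adaptor that brings IRF5 to endosomal Toll-like receptors, had 685, 820 and 761 counts in shNT and 378, 394 and 364 in shPRKCN, and was called lower (-1.03, adjusted p = 3.1e-17). Its carrier SLC15A4 was lower too (-0.68, adjusted p = 3.2e-09), as was the DNA sensor CGAS (-0.67, adjusted p = 1.2e-12). The others called were TLR3, TLR9 and TBKBP1, higher, and TLR7 and STING1, lower, all with at most 69 counts in any library.

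Among 13 tested DNA-binding partners of IRF4 and IRF8, 7 rose and 4 fell, with a median of 0.19 and 30.8% called, against 16.7% of all genes. JUN, which pairs with BATF on composite sites of IRF4, had 12559, 12963 and 13592 counts in shNT and 2500, 2428 and 2649 in shPRKCN (log2 fold change -2.41, SE 0.039, adjusted p = 9.9e-56), further below 0 than IRF4. JUND was called lower at -0.59 (adjusted p = 4.0e-16). BATF (0.70, adjusted p = 9.5e-04) and SPI1, which encodes PU.1 (0.66, adjusted p = 2.8e-07), were called higher, at 2.34 and 7.08 CPM in shNT. IKZF1 and IKZF3, the Ikaros factors that act above IRF4 in myeloma, rose by 0.11 and 0.21 (adjusted p = 0.010 and 2.3e-07).

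Of 13 tested B cell and plasma cell factors of the IRF4 circuit, 1 rose, 6 fell and 6 did not pass, with a median of -0.14. The share called was 30.8% against 16.7% of all genes, while the share that passed the adjusted p alone was close to the 54.2% of all genes. XBP1, the secretory regulator, had 32191, 32879 and 34907 counts in shNT and 13803, 14329 and 14043 in shPRKCN (log2 fold change -1.28, adjusted p = 1.9e-43). KLF2 (-1.40, adjusted p = 4.4e-20) and CIITA, the class II transactivator (-1.32, adjusted p = 1.8e-32), were called lower as well, and so was ZBTB20 (-0.70, adjusted p = 0.0015). PRDM1, which IRF4 induces in plasma cell differentiation, fell by 0.54 on the log2 scale (adjusted p = 3.4e-22), short of the limit. The germinal centre factor BCL6 had 22 to 43 counts in all libraries, with a log2 fold change of 0.34 (adjusted p = 0.427).

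The 2 target lists of activating members were unlike each other. Of 19 tested genes induced through IRF1, 5 rose and 8 fell, with a median of -0.07. The share called was 21.1%, near the 16.7% of all genes. GBP1 was called higher (0.80, adjusted p = 4.5e-20). CIITA, which is also in the list of the IRF4 circuit, CD274 (-0.68, adjusted p = 0.023) and GBP2 (-0.66, adjusted p = 0.0039) were called lower. CD274 had only 36 to 81 counts and GBP2 70 to 125 over the libraries. Of the peptide transporter genes, TAP1 rose by 0.18 (adjusted p = 1.5e-04) and TAP2 fell (-0.13, adjusted p = 0.0039), both short of the limit. Of 37 tested genes listed as targets of IRF9, 26 rose and 6 fell, with a median of 0.57. Among them 17 were called higher and 1 lower. That is 48.6% called, against 16.7% of all genes. DDX60, an RNA helicase of the antiviral response, had 18, 6 and 22 counts in shNT and 212, 224 and 225 in shPRKCN (log2 fold change 3.80, SE 0.238, adjusted p = 1.1e-22). IFI44L (3.56, adjusted p = 4.2e-17) and TRIM22 (2.74, adjusted p = 1.4e-20) were the next. The list was uneven, since MX1 was called higher (0.77, adjusted p = 8.1e-25) and its paralog MX2 lower (-0.68, adjusted p = 1.2e-10), and IFIT1 had a log2 fold change of 0.14 (adjusted p = 0.546). The difference between the 2 lists was not tested.

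**Figure D5:**
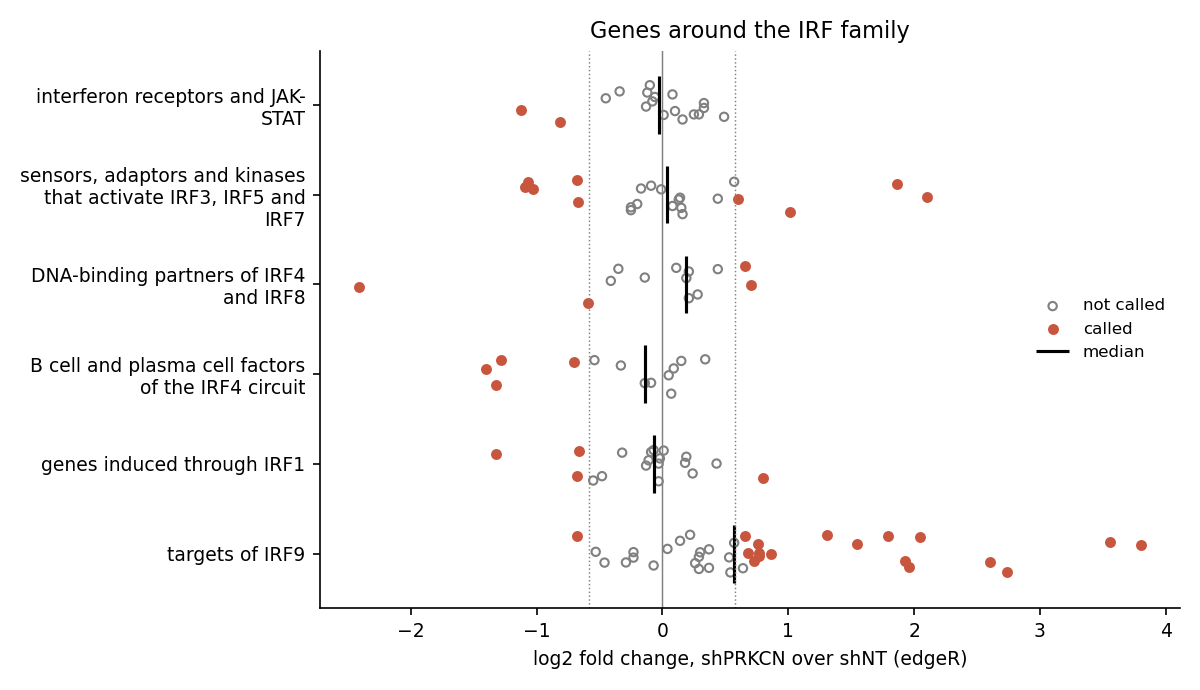
Each point is a tested gene of a list, placed by its log2 fold change (shPRKCN over shNT, edgeR), filled where called, with a black bar at the list's median and dotted lines at the fold limit of 0.58. The genes listed as targets of IRF9 have their median at 0.57 and reach 3.80, while the other lists have medians between -0.14 and 0.19.

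By the root mean square distance of centred log2 CPM over the 6 libraries, the genes most like IRF4 among 11658 were LAMP5, a lysosome-associated membrane protein (distance 0.034), MBNL1, a splicing regulator (0.048), VIM, the intermediate filament vimentin (0.058), MESD, a chaperone of lipoprotein receptors (0.061), and RRM2, a subunit of ribonucleotide reductase (0.063). LAMP5 went from 256 ± 5.23 to 70.5 ± 1.99 CPM and RRM2 from 486 ± 2.19 to 125 ± 1.69 CPM (SD, n = 3). With 2 groups of 3 libraries this likeness mostly says that a gene differed between the groups by about as much as IRF4 did, and no other member was among the 5.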

How the data were processed

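RNA of MM.1S cells at day 3 after infection with shNT or shPRKCN was sequenced in 3 libraries per group. The authors deposited raw counts per gene without normalization, and FPKM values, which follow from those counts, the library total and 1 length per gene. The submitters' processing notes name FastQC, HISAT2, StringTie and GRCh38.p14, without versions. The counting program, annotation and strand setting are not given in the sources used here. Library totals of 35625564 to 37730003 counts set the precision, and errors cover the spread between libraries.

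After TMM scaling, filterByExpr kept 13971 genes for the quasi-likelihood test of edgeR 4.0.16 in R 4.3.3. That test gives no standard error. Each SE given is the absolute log2 fold change divided by the square root of the test's F statistic. A call needed an adjusted p (Benjamini-Hochberg) below 0.05 with a log2 fold change outside ±0.58, as in the study's methods, which used DESeq2. CPM use TMM library sizes. Ratios to IRF4 were log2 ratios of CPM, with 0.5 counts added, compared by exact permutation of libraries. Alternatives were DESeq2 1.42.0, limma 3.58.1 on log2(FPKM + 1) or log2(FPKM + 0.1), other scalings and filters, a replicate block and each library left out. Promoters came from RefSeq, with motifs searched in Python 3.11.15, and shared 50-base stretches from GENCODE 29 transcripts. Scripts were tested on simulated data.

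The members and lists were chosen with earlier results of these data known. Named are all members, IRF2BPL, genes overlapping or divergent from a member, PRKD3, in each list up to 3 called genes in each direction with a mean of at least 50 counts, the plasma cell markers and the 5 genes most like IRF4. Some results for genes fixed in the design are not reported here, and the sum over DNA-binding IRFs was restricted to the 8 members after the data were seen. Other genes of the lists were named after their values were seen.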

Additional observations from a re-analysis of the deposited data

How the results depend on the processing

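IRF4 and PRKD3 were called lower in all 16 alternative settings, IRF4 with log2 fold changes from -1.87 to -1.80. The number of genes called was 963 with limma on log2(FPKM + 1), 945 with the same and an FPKM of at least 1 in 3 libraries, and 7577 with no fold limit, against 2334. Of the members, 7 passed with no fold limit, and leaving out a library gave 1 to 2 called, IRF9 joining IRF4 without shNT replicate 1 or shPRKCN replicate 2. Genes called in the lists numbered 19 (14 higher, 5 lower) with log2(FPKM + 1), 16 (11 higher, 5 lower) with the FPKM minimum and 92 with no fold limit, against 40. By the naming rule given above 20 called list genes were named, and 9 of them were still called with log2(FPKM + 1). These were TASL, JUN, XBP1, CIITA, KLF2, GBP1, IFI44L, DDX60 and TRIM22. Among the 20 the calls lost were JAK2, SOCS3, CGAS, IKBKE, SLC15A4, SPI1, BATF, JUND, GBP2, CD274 and MX2. The receptor list thus had 0 calls by that setting, against 2 by edgeR. Of the genes named outside that rule, TLR3, TLR9, TBKBP1, TLR7, STING1 and ZBTB20 lost their calls too. A pseudocount of 1 shrinks the fold changes of low genes by its construction. With counts in place of FPKM the IRF4 share differed by -32.7 percentage points in place of -29.9. Leaving out a library moved the log2 fold change of IRF2BP1 between -0.01 (without shPRKCN replicate 2) and 0.13.

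Correlations of deviations from the group means were -0.059, -0.020 and -0.016 for same-numbered libraries. For differently numbered libraries they ran from -0.049 to 0.07. No shared effect of replicate number was seen, so the main test is unpaired. These correlations cannot show whether same-numbered libraries were made together. With the replicate block 2317 genes were called, 1 member and 40 list genes among them, and the adjusted p of IRF3 (0.068) and IRF2BP2 (0.054) no longer passed. The small differences of IRF3, IRF7, IRF8 and IRF2BP2 are at the limit of what 3 libraries per group resolve, and their adjusted p passed in 11, 2, 6 and 5 of 16 settings.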

Other observations

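The ratio of the activator IRF1 to its antagonist IRF2, a pair chosen after their values were seen, was 1.70, 1.84 and 1.93 by FPKM in shNT and 2.57, 2.61 and 2.50 in shPRKCN. All shPRKCN libraries were above all shNT libraries, with a difference of 0.49 on the log2 scale (exact two-sided permutation p = 0.1, the smallest that 3 against 3 libraries can give). Among sensors and adaptors too low for the rule on named genes, TLR3 had 3, 12 and 7 counts in shNT and 36, 24 and 23 in shPRKCN, and TBKBP1, an adaptor of TBK1, had 6, 7 and 21 counts in shNT and 69, 44 and 37 in shPRKCN.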
